A study of Mus musculus with 6 samples.

Results

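The genes of antigen presentation by major histocompatibility complex (MHC) class II were followed in the hippocampus of mice that lack IκBα in the brain. They were 7 genes, chosen by name: the peptide-binding chains H2-Aa, H2-Ab1 and H2-Eb1, the peptide editor subunit H2-DMa, the invariant chain Cd74, the transcriptional coactivator Ciita and the protease Ctss. All probe sets whose only gene symbol was one of these were used, which gave 15 of the 45037 probe sets tested, for 7 of 18193 genes. The IκBα-deficient group held 3 animals with 1 floxed and 1 null IκBα allele plus Nestin-Cre (IκBαfl/-;Nestin-Cre), and the control group held 3 littermates with the same floxed and null alleles and no recombinase (IκBαfl/-). All 6 animals were 2 to 3 months old. Because the controls also carried 1 null allele, they are not wild type, and loss of IκBα and presence of Cre cannot be told apart. Nestin-Cre acts in the neural lineage, from which neurons, astrocytes and oligodendrocytes derive. Microglia and other macrophages, the cells best known for class II in the brain, arise outside that lineage. RNA from dissected hippocampus was measured on Affymetrix arrays, 1 per animal, and strain and sex are not given in the labels used here.

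Class II molecules are pairs of an alpha and a beta chain that carry peptides from endosomes to the cell surface, where CD4+ T cells read them. In the endoplasmic reticulum the invariant chain Cd74 fills the peptide groove and guides the pair to endosomes. There proteases such as cathepsin S (Ctss) cut Cd74 down to a short remnant, which the H2-DM editor exchanges for a peptide. The chains, H2-DM and Cd74 are switched on together by Ciita, which binds no DNA itself and docks on factors at the X and Y boxes of their promoters. Ciita is in turn induced by interferon gamma. In the resting brain class II is scarce, and it is found mainly on macrophages of the meninges, choroid plexus and vessel walls. Ctss is an abundant microglial transcript.

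Promoters of the members are shown because these genes are known for a shared promoter module. The windows searched in the RefSeq promoter table (build GRCm38.p6) covered 4 of the 7 members, H2-Aa, H2-Eb1, H2-DMa and Ctss. For these there were 5 windows of 250 bases before and 50 after the annotated start. H2-Ab1, Cd74 and Ciita had no window among those searched, and the windows of 1 chromosome were left out of the search. Capitals mark matches, on either strand, to the Y box core GATTGG, to the X box with at most 1 mismatch, to the κB site of NF-κB, or to the interferon-stimulated element core GAAANNGAA. The windows are H2-Aa (chr17:34287774-34288073, minus strand), H2-Eb1 (chr17:34305617-34305916, plus strand) and Ctss (chr3:95526536-95526835, plus strand).
H2-Aa: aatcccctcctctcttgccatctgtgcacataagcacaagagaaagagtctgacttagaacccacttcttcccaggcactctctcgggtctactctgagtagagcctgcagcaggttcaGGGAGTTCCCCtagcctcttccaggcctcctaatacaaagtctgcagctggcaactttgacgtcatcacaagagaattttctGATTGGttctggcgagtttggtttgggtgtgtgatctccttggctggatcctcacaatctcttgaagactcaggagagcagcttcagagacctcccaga
H2-Eb1: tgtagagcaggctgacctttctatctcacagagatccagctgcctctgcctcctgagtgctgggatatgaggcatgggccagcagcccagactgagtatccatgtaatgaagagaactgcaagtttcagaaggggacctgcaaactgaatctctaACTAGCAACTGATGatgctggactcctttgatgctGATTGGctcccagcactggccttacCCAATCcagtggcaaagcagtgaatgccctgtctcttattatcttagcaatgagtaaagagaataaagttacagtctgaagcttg
Ctss: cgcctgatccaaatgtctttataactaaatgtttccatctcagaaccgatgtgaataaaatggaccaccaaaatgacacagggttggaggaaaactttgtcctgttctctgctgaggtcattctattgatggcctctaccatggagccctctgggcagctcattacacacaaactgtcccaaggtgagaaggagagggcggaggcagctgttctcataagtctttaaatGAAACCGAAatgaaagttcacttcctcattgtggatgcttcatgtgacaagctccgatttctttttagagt

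Positions are counted from the annotated start, with -1 for the base before it. H2-Eb1 held an X box with 1 mismatch at -95, a Y box core at -60 and a further core on the minus strand at -35. The X box and the first Y box core stood 21 bases apart. H2-Aa held a Y box core at -49 and 1 stretch that matched the κB site, at -131 on both strands and at -130 on the minus strand. Ctss held no Y box core, and its only capitals are an interferon-stimulated element core at -21. Of the H2-DMa windows, the first had none of these matches and the second had a Y box core at -199. Over all 32851 windows searched, the Y box core was found in 16.1%, the X box with at most 1 mismatch in 0.712%, the κB site in 8.46% and the interferon element core in 8.56%. A looser X box with up to 3 mismatches matched 52.8% of all windows, so its matches were not marked. These are matches of letters, not evidence of binding. In the RefSeq gene order H2-Ab1, H2-Aa and H2-Eb1 are neighbouring protein-coding genes.

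Values are log2 probe set intensities from RMA, which corrects background, quantile-normalizes the arrays and summarises the probes of a set. Differences are IκBα-deficient minus control, with the standard error (SE) and adjusted p of limma over all probe sets. The targeted transcript Nfkbia was lower in the IκBα-deficient animals, with differences of -1.83 to -1.40 in its 4 brighter probe sets and -0.35, with overlapping groups, in the dimmest. Of the 45037 probe sets, 3 were called at an adjusted p under 0.05, which is 0.00666%, and all 3 read Nfkbia. Array medians lay between 6.08 and 6.12. The neuronal marker Snap25 was bright on all arrays, at 13.95 ± 0.03 in IκBα-deficient and 13.94 ± 0.02 in control animals (SD, n = 3 each). IκBα-deficient array 2 stood apart by how far 3′ control probe sets exceeded their 5′ counterparts, 2.02 on the log2 scale against 0.556 to 0.725 on the other 5 arrays. It also had the highest mean of the meningeal marker list.

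None of the 15 member probe sets passed the test, and every adjusted p was 1.00 (limma over all probe sets, Benjamini-Hochberg). The chains that form class II lay higher on average in IκBα-deficient animals, H2-Aa by 0.59, H2-Ab1 by 0.41 and H2-Eb1 by 0.26 on the log2 scale at their brightest probe sets. The invariant chain Cd74 lay higher by 0.47. H2-DMa, Ciita and Ctss differed by 0.02, 0.07 and 0.12. In bulk tissue a change in the number of cells that carry a transcript and in the amount per cell cannot be told apart.

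**Figure D1:**
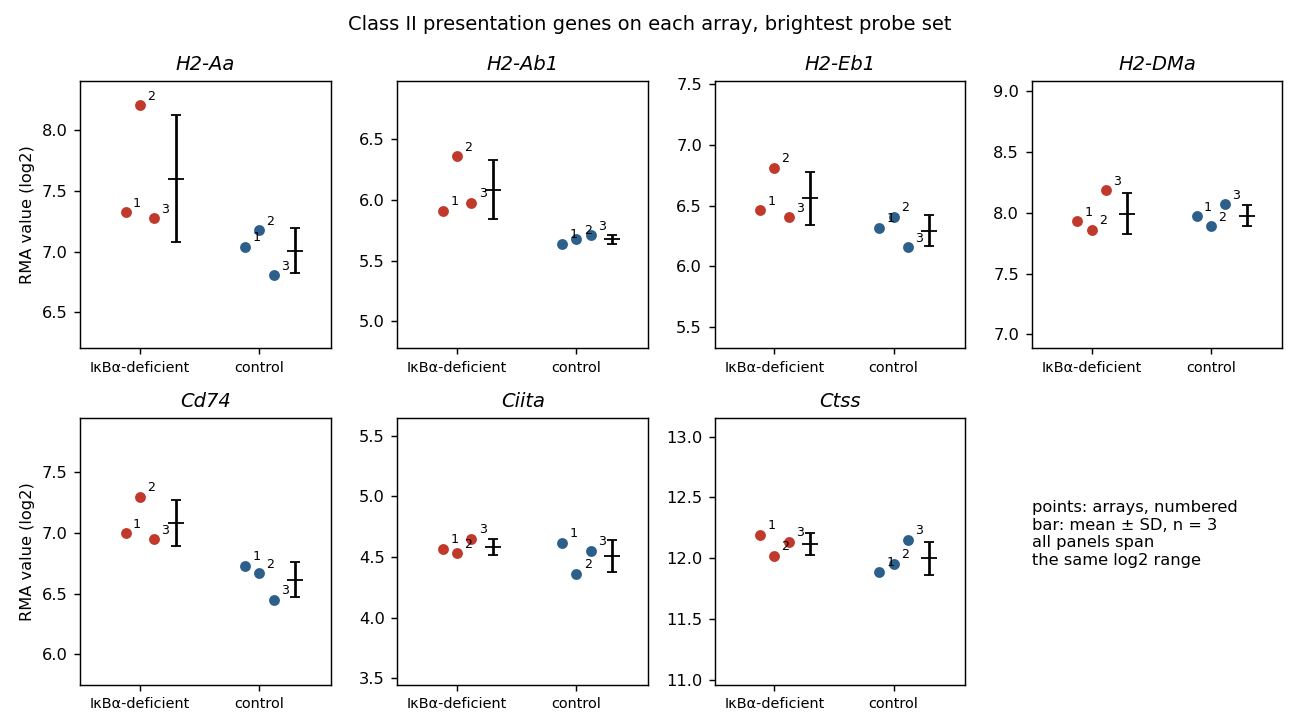
RMA log2 value (vertical axis) of each class II gene at its brightest probe set, with 1 point per array, numbered, for IκBα-deficient and control animals. Bars give the mean ± SD of 3 arrays. The groups separate for H2-Aa, H2-Ab1 and Cd74 and overlap for the others, and IκBα-deficient array 2 is the highest point for H2-Aa, H2-Ab1, H2-Eb1 and Cd74.

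H2-Aa, the alpha chain of the I-A molecule, was read by 4 probe sets. The brightest, 1438858_x_at, was at 7.32, 8.21 and 7.28 on the IκBα-deficient arrays, against 7.04, 7.18 and 6.81 on the control arrays. Every IκBα-deficient array lay above every control array and array 2 stood far above the others. The means were 7.60 ± 0.53 in IκBα-deficient animals and 7.01 ± 0.19 in controls (SD, n = 3), a difference of 0.59 ± 0.24 (SE) or 1.51-fold. Without IκBα-deficient array 2 the difference was 0.29. Probe set 1435290_x_at gave 6.57, 8.07 and 6.81 in IκBα-deficient animals, against 6.50, 6.24 and 5.55 in controls. It had the widest difference of all 15, 1.05 ± 0.40 (SE) with a 95% interval of 0.11 to 1.99, and here too array 2 was far above the rest while control array 3 was far below. The dimmer 1452431_s_at and 1443783_x_at differed by 0.28 and 0.15, with overlapping groups. The suffixes _x_at and _s_at mark probe sets with probes shared with other transcripts, and all 4 probe sets of H2-Aa carry one. Signal from related genes was not tested.

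H2-Ab1, the beta chain that pairs with H2-Aa, was read by 3 probe sets that disagreed. In 1450648_s_at the values were 5.91, 6.36 and 5.98 in IκBα-deficient animals, against 5.64, 5.68 and 5.71 in controls. The groups separated and the control arrays lay close together. The means were 6.08 ± 0.24 in IκBα-deficient animals and 5.68 ± 0.03 in controls (SD, n = 3). The difference was 0.41 ± 0.12 (SE), or 1.33-fold, and 0.27 without IκBα-deficient array 2. The other probe sets showed overlapping groups. 1425477_x_at was at 4.72, 4.92 and 4.51 in IκBα-deficient animals, against 4.89, 4.53 and 4.64 in controls, a difference of 0.03 with a 95% interval of -0.28 to 0.34. 1451721_a_at, whose suffix marks transcripts of a single gene, differed by -0.02 with an interval of -0.30 to 0.27. Both are dim, with all values under 5. The mean of the 3 probe sets differed by 0.14.

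H2-Eb1, the beta chain of the I-E molecule, was read by 1 probe set without a sharing suffix, at 6.46, 6.81 and 6.40 in IκBα-deficient animals. In controls it was at 6.32, 6.41 and 6.16. The groups overlapped narrowly, since control array 2 lay just above IκBα-deficient array 3. The means were 6.56 ± 0.22 in IκBα-deficient animals and 6.29 ± 0.13 in controls (SD, n = 3), with a difference of 0.26 ± 0.12 (SE) and a 95% interval of -0.02 to 0.55. Without IκBα-deficient array 2 the difference was 0.14.

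Cd74, the invariant chain, had the smallest unadjusted p of the 15 probe sets, 0.00492 (limma). Its single probe set was at 6.996, 7.30 and 6.95 in IκBα-deficient animals, against 6.73, 6.67 and 6.45 in controls. All 3 IκBα-deficient arrays lay above all controls, array 2 highest. The means were 7.08 ± 0.19 in IκBα-deficient animals and 6.62 ± 0.15 in controls (SD, n = 3), a difference of 0.47 ± 0.12 (SE) or 1.38-fold, with a 95% interval of 0.19 to 0.74. It was 0.36 without IκBα-deficient array 2.

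H2-DMa, the alpha subunit of the editor that loads peptides, had overlapping groups in both of its probe sets. 1422527_at was at 7.93, 7.86 and 8.19 in IκBα-deficient animals, against 7.97, 7.89 and 8.07 in controls. IκBα-deficient array 2, the highest for the class II chains, was here the lowest of all 6. The means were 7.99 ± 0.17 in IκBα-deficient animals and 7.98 ± 0.09 in controls (SD, n = 3), and the 95% interval of the difference, -0.22 to 0.25, includes 0. The dim 1459872_x_at differed by 0.09 with overlapping groups.

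Ciita, the coactivator above these genes, was dim in all of its 3 probe sets. The brightest, 1421210_at, was at 4.57, 4.53 and 4.65 in IκBα-deficient animals, against 4.62, 4.36 and 4.55 in controls, so the groups overlapped. The difference was 0.07 with a 95% interval of -0.13 to 0.28. 1421211_a_at and 1447075_at differed by 0.09 and 0.05, with intervals that also span 0. All values of Ciita lay between 3.59 and 4.65, among the lowest of the members.

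Ctss, the cathepsin that trims the invariant chain, was the brightest of the 15 probe sets. It was at 12.19, 12.02 and 12.13 in IκBα-deficient animals, against 11.89, 11.96 and 12.15 in controls. The groups overlapped because control array 3 lay among the IκBα-deficient arrays, and the means were 12.12 ± 0.09 in IκBα-deficient animals and 11.998 ± 0.14 in controls (SD, n = 3). The difference was 0.12 ± 0.09 (SE), with a 95% interval of -0.10 to 0.33.

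**Figure D2:**
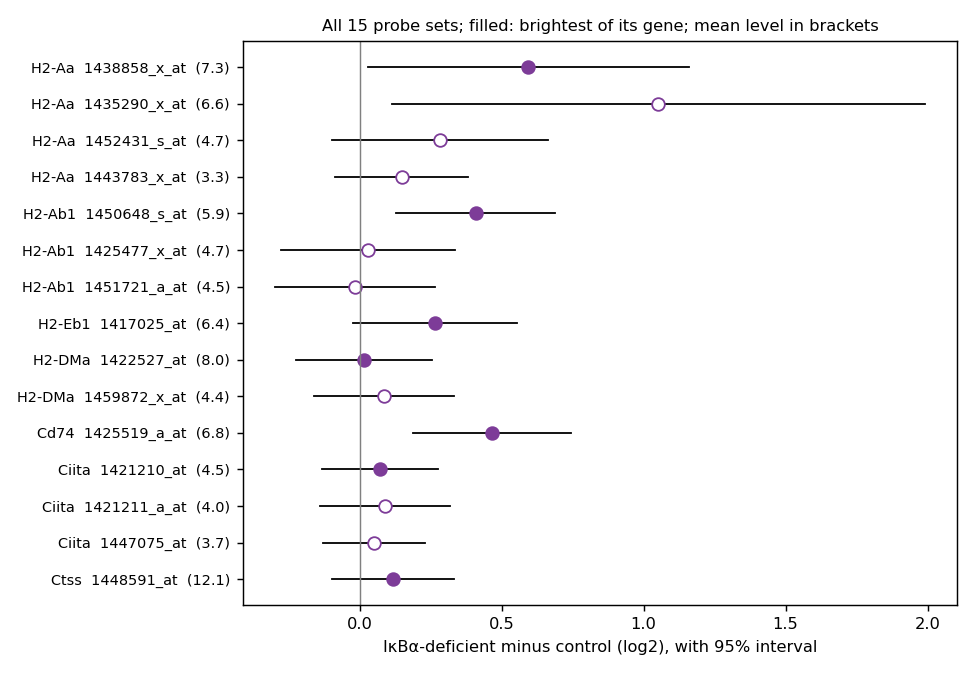
Difference between IκBα-deficient and control animals (horizontal axis, log2) for all 15 probe sets, with 95% intervals from limma that are not adjusted for the number of probe sets. Filled circles are the brightest probe set of a gene, and the mean level is in brackets. The intervals of 4 probe sets, of H2-Aa, H2-Ab1 and Cd74, lie above 0 and the other 11 include it.

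Counted over the members, 14 of 15 probe sets had a positive difference and 1 a negative one, where 49.8% of all probe sets were positive. The groups separated upward in 4 of the 15 against 4.76% of all probe sets. IκBα-deficient array 2 was the highest of 6 in 9 of the 15, against 27.4% of all probe sets. The 4 probe sets with an unadjusted p under 0.05 (limma, higher in IκBα-deficient animals) compare with 2.15% of all. At 1 probe set per gene, 7 of 7 members were positive against 52.6% of genes, with a median difference of 0.26 against 0.006 over all genes. The fit of 18193 genes called 0 genes (0%) at an adjusted p under 0.05, with 857 genes, 4.71%, at an unadjusted p under 0.05. Nfkbia, read there by its brightest probe set, differed by -1.40 with an adjusted p of 0.0570 (limma), and members had adjusted p of 0.963 to 0.994. An unadjusted p under 0.05 with a positive difference was found for 3 of the 7 members, against 3.33% of genes. The groups separated upward for 3 of the 7 genes against 5.94% of all genes, and downward for 0 against 3.82%. H2-Aa had a larger difference than 99.7% of genes, Cd74 than 99.4%, H2-Ab1 than 99.3% and H2-Eb1 than 97.7%. The figures for Ctss, Ciita and H2-DMa were 87.6%, 76.2% and 54.6%. H2-Aa, H2-Ab1, H2-Eb1 and Cd74 were all highest on IκBα-deficient array 2, and all members share their arrays. These counts are therefore not independent observations.

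**Figure D3:**
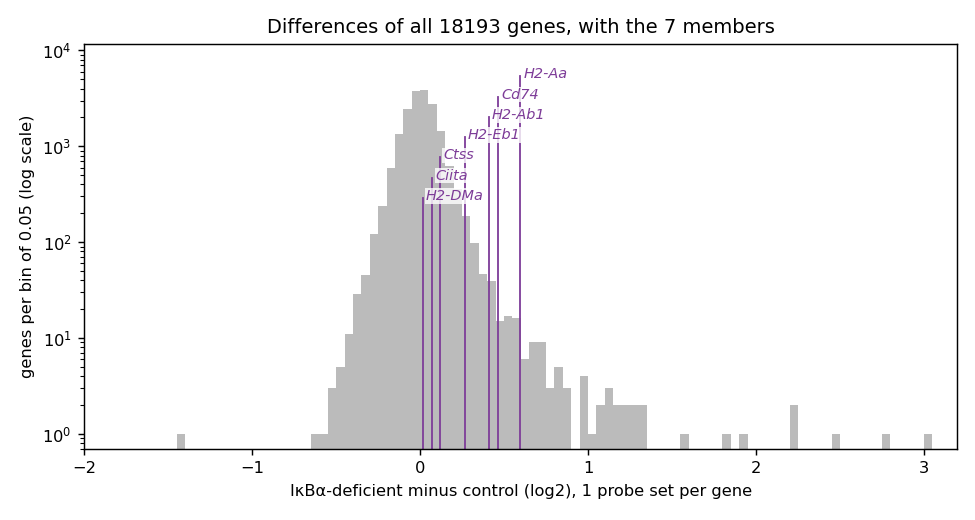
Number of genes (vertical axis, log scale) by difference between IκBα-deficient and control animals (horizontal axis, log2, bins of 0.05), with lines at the 7 members. H2-DMa, Ciita and Ctss fall in the body of the distribution, while H2-Eb1, H2-Ab1, Cd74 and H2-Aa fall in its upper tail. The longer tail beyond them holds choroid plexus genes such as Ttr and Clic6.

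Whether Cd74 differed from the other members was tested on the within-array difference between the genes. Cd74 differed by 0.45 more than H2-DMa (exact permutation p = 0.20), by 0.39 more than Ciita (p = 0.20, exact) and by 0.35 more than Ctss (p = 0.30, exact). Against H2-Eb1 the margin was 0.20 with an exact permutation p of 0.10, the smallest that 3 arrays against 3 allow. After adjustment over the 6 pairs with Cd74, all p were between 0.40 and 0.90 (exact two-sided permutation, Benjamini-Hochberg). With H2-Aa the margin was -0.13 (p = 0.80, exact) and with H2-Ab1 0.06 (p = 0.90, exact). With 3 arrays a group no pair could reach 0.05, so these p say nothing on whether the members acted alike.

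IκBα-deficient array 2 was also the highest of 6 for 4 of 7 members, against 32.4% of all genes, and control array 3 the lowest for 3 of 7, against 16.4%. H2-Aa followed the order of the meningeal marker mean closely. That mean was 7.97, 8.86 and 7.997 in IκBα-deficient arrays 1, 2 and 3, against 7.84, 7.92 and 7.42 in the controls. From lowest to highest, both measures placed control arrays 3, 1 and 2 before IκBα-deficient arrays 1 and 3, which were nearly level, and array 2 last. With the meningeal mean as a covariate, the difference was 0.07 ± 0.09 (SE) for H2-Aa, 0.02 ± 0.07 for H2-Eb1, 0.22 ± 0.10 for H2-Ab1 and 0.25 ± 0.08 for Cd74. In the same fit Ctss differed by 0.24 ± 0.09, more than without the covariate. Adjusted p in that fit (limma) were 0.783 or more. With the 3′ to 5′ gap as a covariate, added after seeing the data, the differences were 0.29 for H2-Aa, 0.28 for H2-Ab1, 0.14 for H2-Eb1 and 0.36 for Cd74. Without both IκBα-deficient array 2 and control array 3, they were 0.19, 0.29, 0.07 and 0.27.

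**Figure D4:**
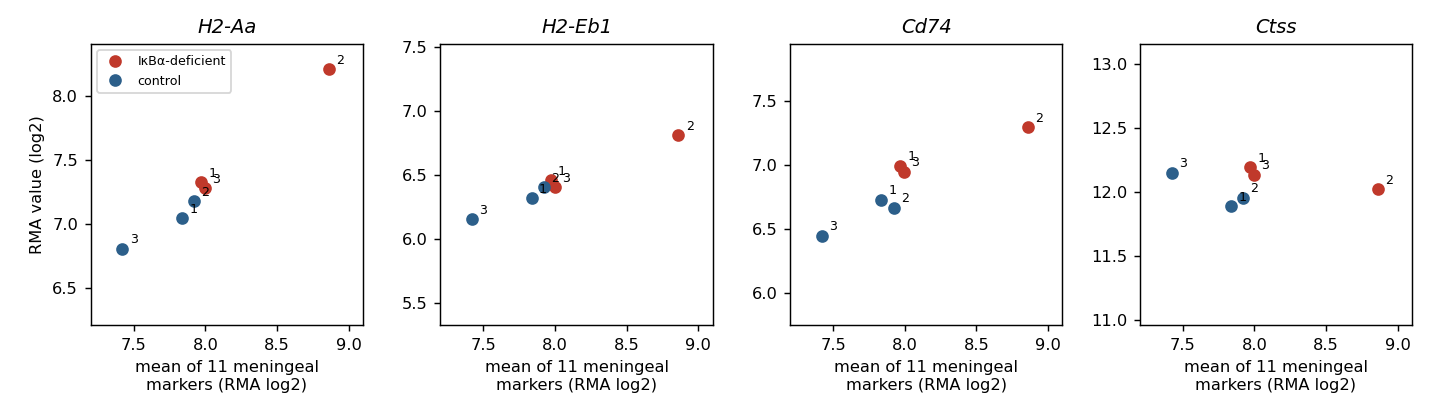
RMA log2 value of H2-Aa, H2-Eb1, Cd74 and Ctss (vertical axes, all spanning the same log2 range) against the mean of 11 meningeal markers (horizontal axis, RMA log2), with 1 numbered point per array for IκBα-deficient and control animals. For H2-Aa, H2-Eb1 and Cd74, IκBα-deficient array 2 is at the top right and control array 3 at the bottom left, and for Ctss it is not so.

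Genes with the most similar profiles were sought among 12154 genes with a mean of at least 6, by the root mean square distance between log2 values centred on each gene's own mean over the 6 arrays. With that many candidates and 6 arrays, close matches are common, so the names are a description. The 5 nearest to Cd74 were Arhgap6 at 0.056, Anxa4, Thbs2, Mmp14 and Phactr2 at 0.081, where Cd74 itself spread by 0.27 about its mean. Those nearest to H2-Aa, which spread by 0.44, were the gap junction gene Gjb2 at 0.056, the transcription factor gene Tbx18, the basement membrane collagen Col4a5, Phldb2 and the complement C1 inhibitor Serping1 at 0.093. Gjb2 was at 6.999, 7.98 and 6.93 in IκBα-deficient animals, against 6.81, 6.99 and 6.53 in controls. Its groups overlapped, since control array 2 lay above IκBα-deficient array 3, while for H2-Aa they did not. Ctss had other neighbours, led by the leukocyte tetraspanin Cd53 at 0.028, followed by Zfp606, Zfp36l2, Gnl2 and Tamm41.

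No gene of the wider class II machinery passed the test. Among 12 measured partners, that is further class II chains and the transcription factors of the X and Y boxes, 3 were positive and 9 negative. Their median difference was -0.07, and 0 passed in either direction (limma). An unadjusted p under 0.05 was reached by 0 of 12, against 4.71% of all genes (limma). The groups separated downward for 2 of the 12, Nfya and Nfyc, against 3.82% of all genes. Nfya, a subunit of the Y box factor NF-Y, was at 8.08, 7.83 and 8.15 in IκBα-deficient animals, against 8.15, 8.25 and 8.19 in controls, a difference of -0.18. All 3 IκBα-deficient arrays lay below the controls, array 2 by most and array 3 only just, at 8.149 against 8.151 on control array 1. Rfxap, a subunit of the X box factor RFX, differed by -0.15, the NF-Y subunit Nfyc by -0.08 and the transcription factor Creb1 by -0.09. Rfxap and Creb1 too were lowest on IκBα-deficient array 2. Further chains were also near 0 or below, with H2-Eb2 at -0.08 and H2-DMb2, a beta subunit of the editor, at -0.03. H2-Ea, which is listed as a class II alpha chain and is known as a pseudogene in some mouse strains, was at -0.07.

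Of 11 measured genes that process antigen or turn class II over, 8 were positive and 3 negative, with a median of 0.05. Of these, 0 passed and 1 reached an unadjusted p under 0.05, against 4.71% of all genes (limma). The groups separated upward for 3 of the 11, among them Ctsh and Lgmn, against 5.94% of all genes, and downward for 0 against 3.82%. The aminopeptidase cathepsin Ctsh was at 8.30, 8.37 and 8.31 in IκBα-deficient animals, against 8.17, 8.19 and 8.14 in controls. The groups separated with little spread, and the difference of 0.16 ± 0.06 (SE) had an unadjusted p of 0.0258 (limma). Marchf8, a ubiquitin ligase, differed by 0.14, the endosomal protease Lgmn by 0.10 and Ifi30, the lysosomal thiol reductase, by 0.11. Of 7 costimulatory genes 5 were positive and 2 negative, with 0 passing (limma, 0 at an unadjusted p under 0.05). Cd40, a receptor through which T cells activate presenting cells, differed by 0.22, Icam1 by 0.10, Cd80 by -0.06 and Pdcd1lg2 by -0.05.

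In the interferon gamma axis above Ciita, 5 of 8 measured genes were positive and 3 negative, with a median of 0.02. Of these, 0 passed and 2 reached an unadjusted p under 0.05, against 4.71% of all genes (limma). The groups separated upward for 2 of the 8, Ifngr1 and Irf1, against 5.94% of all genes, and downward for 0 against 3.82%. Ifngr1, a receptor chain for interferon gamma, was at 8.25, 8.31 and 8.36 in IκBα-deficient animals, against 8.07, 7.99 and 7.91 in controls. The groups separated, with a difference of 0.31 ± 0.07 (SE) and an unadjusted p of 0.00197 (limma), and array 2 was not the highest. Irf1, a transcription factor that acts on the Ciita gene and is itself an NF-κB target, was at 8.02, 8.24 and 8.11 in IκBα-deficient animals, against 7.87, 7.96 and 7.93 in controls, also separated, with a difference of 0.20. Socs1, a feedback inhibitor, differed by -0.18 and the kinase Jak1 by -0.15. Jak1 was at 10.26, 9.62 and 10.32 in IκBα-deficient animals, against 10.22, 10.13 and 10.29 in controls, so array 2 alone lay below the controls. The cytokine gene Ifng was dim, at 3.40 ± 0.14 in IκBα-deficient and 3.42 ± 0.14 in control animals (SD, n = 3).

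**Figure D5:**
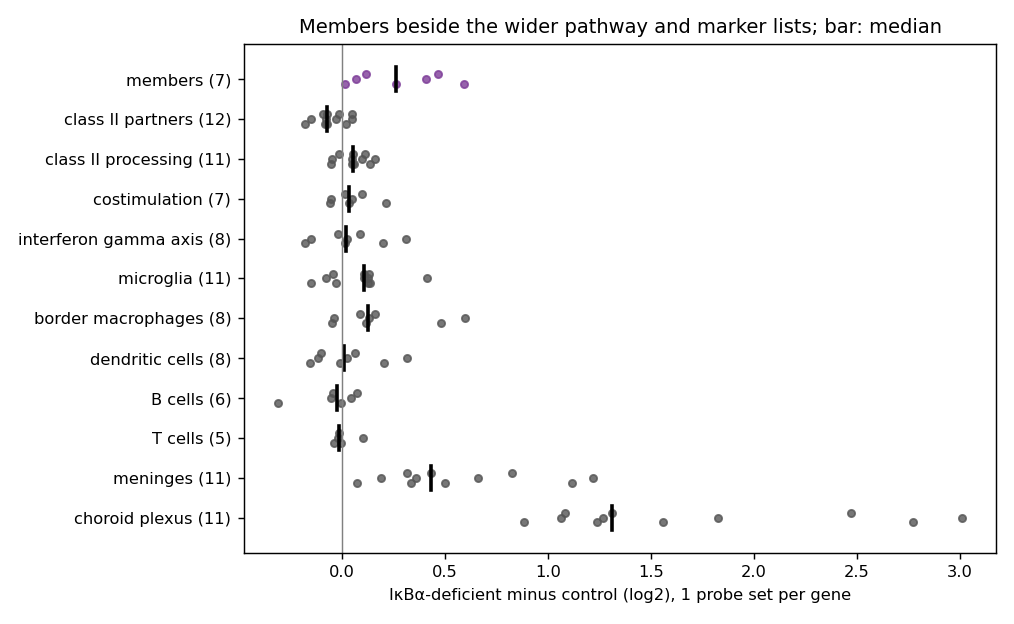
Difference between IκBα-deficient and control animals (horizontal axis, log2, brightest probe set of each gene) for the 7 members and for the wider pathway and cell type marker lists, with 1 point per gene, the number of measured genes in brackets and a bar at the median. The members have a median of 0.26, above those of the 4 pathway lists and of the leukocyte lists and below those of the meninges and choroid plexus lists.

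Cell types that can carry class II were followed through their markers, and 0 markers passed in any list (limma). An unadjusted p under 0.05 was reached by 2 border macrophage, 1 microglial, 1 B cell, 0 dendritic cell and 0 T cell markers. It was also reached by all 11 choroid plexus and 5 of 11 meningeal markers, and by 0 endothelial and 2 neuronal ones. The share of all genes was 4.71% (limma). For border macrophages, which lie in meninges, choroid plexus and vessel walls, 6 of 8 genes were positive, and the list mean was 5.92 to 6.33 in IκBα-deficient animals against 5.88 to 5.97 in controls. F13a1 was at 6.59, 7.31 and 6.32 in IκBα-deficient animals, against 6.12, 6.08 and 6.23 in controls, and the mannose receptor Mrc1 at 6.30, 6.75 and 5.96 in IκBα-deficient animals, against 5.98, 5.83 and 5.74 in controls. Both were highest on IκBα-deficient array 2, as were H2-Aa, H2-Ab1, H2-Eb1 and Cd74. The border macrophage genes Lyve1 and Ms4a7 differed by -0.04 and -0.05.

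Microglial markers were positive in 7 of 11 genes, with list means of 8.51 to 8.67 in IκBα-deficient animals against 8.46 to 8.62 in controls. Gpr34 differed by 0.41, Tyrobp by 0.13 and Cx3cr1 by 0.11, all with separated groups. The groups separated upward for 3 of the 11, against 5.94% of all genes, and downward for 0 against 3.82%. P2ry12 differed by -0.15, Tmem119 by -0.08, Trem2 by -0.04 and Siglech by -0.03. P2ry12 was at 8.56, 7.53 and 8.60 in IκBα-deficient animals, against 8.26, 8.28 and 8.58 in controls. Tmem119, Trem2 and Aif1 were also lowest on IκBα-deficient array 2, while Tyrobp, Fcrls and Csf1r were highest on it. The microglial mean was lowest of its group on this array, where the class II chains were highest, but single markers were split. Dendritic cell markers were split, 4 of 8 positive, with list means of 5.42 to 5.62 in IκBα-deficient animals against 5.40 to 5.56 in controls, with Clec10a and Itgax at 0.32 and 0.20, and Cd209a, Flt3, Ccr7 and Xcr1 at -0.15, -0.11, -0.10 and -0.01. B cell markers were positive in 2 of 6 genes, with list means of 4.88 to 5.09 in IκBα-deficient animals against 4.998 to 5.09 in controls. Pax5 was at -0.31 and Cd22 at 0.07. T cell markers were positive in 1 of 5, with list means of 5.41 to 5.69 in IκBα-deficient animals against 5.49 to 5.62 in controls, Cd3d at 0.10 and Cd3e at -0.04.

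Markers of neighbouring tissue differed in 1 direction between the groups. All 11 measured meningeal genes were positive, with list means of 7.97 to 8.86 in IκBα-deficient animals against 7.42 to 7.92 in controls. Igfbp2 and Igf2, with the smallest unadjusted p, were at 0.66 and 1.22. Igf2 was highest on IκBα-deficient array 2, and Igfbp2 on array 1, which had the highest choroid plexus mean. All 11 choroid plexus genes were positive, with list means of 7.81 to 8.78 in IκBα-deficient animals against 5.88 to 7.91 in controls, and Sostdc1 and Clic6 at 1.56 and 3.01. Control array 1, at 7.91, lay within the range of the IκBα-deficient arrays for the choroid plexus list. On this 1 array H2-Aa, H2-Ab1, H2-Eb1 and Cd74 lay below the IκBα-deficient arrays at their brightest probe sets. With the choroid plexus mean as a covariate, differences between IκBα-deficient and control animals were 0.59 ± 0.38 (SE) for H2-Aa and 0.48 ± 0.19 for H2-Ab1. They were 0.24 ± 0.20 for H2-Eb1 and 0.35 ± 0.18 for Cd74. Each SE was wider than without the covariate, so these differences are imprecise. Endothelial markers were positive in 5 of 7 genes, with list means of 8.64 to 8.79 in IκBα-deficient animals against 8.60 to 8.67 in controls. Hippocampal neuron markers were positive in 3 of 8 genes, with list means of 10.65 to 10.68 in IκBα-deficient animals against 10.66 to 10.76 in controls. Of these markers, Neurod6 differed by 0.24 and C1ql2 by -0.28. The covariate values are descriptions, and the part of neighbouring tissue in the class II values was not tested.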

How the data were processed

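Hippocampal total RNA of 6 mice was hybridised to Affymetrix arrays. The deposited values are on the log2 scale and were made by the authors with RMA, per the submitters' processing notes. The version of RMA, the probe annotation and the build were, in the sources used here, not given. Quantile normalization hides changes shared by most genes, and low values are compressed. Sorted values of the arrays differed by at most 0.10. Arrays have no read depth, and their number limits the precision.

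Of 45101 probe sets, 64 control probe sets were left out. GEO's annotation of the array platform, whose symbols may be outdated, gave 1 symbol to 34945 probe sets, several to 932 and none to 9160. Of those with 1 symbol, 34741 matched RefSeq by Entrez identifier. All 45037 probe sets were fitted on genotype alone by lmFit and eBayes of limma (version 3.58.1, under R 4.3.3), two-sided, with Benjamini-Hochberg adjustment over all of them and a threshold of 0.05. A further fit used the probe set with the highest mean of each of 18193 genes, and gave all gene and list counts. Named genes were the members, Nfkbia, of each pathway list the 4 with the smallest p, of each marker list up to 2, and the nearest profiles. H2-Ea, H2-Eb2, H2-DMb2, Ifng, Lyve1, Ms4a7, Cx3cr1, P2ry12, Tmem119, Trem2, Siglech, Aif1, Fcrls, Csf1r, Cd209a, Flt3, Ccr7, Xcr1, Snap25 and Ttr were named after their values were seen. The members and all lists were chosen with earlier results of these data known.

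The labels call the arrays biological repeats of separate animals. The study's design speaks of pairs with littermates, but no label ties a repeat number to a litter, so arrays were compared unpaired. Promoter windows of 1 chromosome were not used here. A further motif searched is not reported here. Scripts were tested on simulated data. Figures were drawn with matplotlib 3.10.9.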

Additional observations from a re-analysis of the deposited data

How the results depend on the processing

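Called member probe sets, called member genes and called genes of the wider pathway lists were 0 under all alternatives run. Cd74, H2-Aa, H2-Eb1 and Ctss kept a positive difference under each of theirs, at 0.25 to 0.53, 0.07 to 0.76, 0.02 to 0.34 and 0.06 to 0.24. H2-Ab1 turned to -0.016 when only probe sets coded _s_at or _x_at were left out, a choice added after seeing the data. With _a_at also left out it had no other probe set and stayed at 0.41. Leaving out 1 array at a time, H2-DMa ranged from -0.080 (without IκBα-deficient array 3; -0.028 without control array 2) to 0.081 and Ciita from -0.0022 (without control array 2) to 0.12. Ciita was at -0.022 with the choroid plexus covariate. The number of members with a positive difference ranged from 5 to 7 with 1 array left out, and was 4 of 4 left when the 40% dimmest genes were dropped, which removed Ciita, H2-Ab1 and H2-Eb1. The median difference of the members was 0.17 without IκBα-deficient array 2, the lowest with 1 array left out, and 0.34 without IκBα-deficient array 3, the highest. It was 0.147 with the meninges covariate, 0.140 when all probe sets of a gene were averaged and 0.117 without _s_at and _x_at probe sets, except for H2-Aa, which has no other and kept its _x_at probe set. The cause was not tested.

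Called probe sets of the whole table, 3 in the fit of all, ranged from 1 to 8 with 1 array left out (8 without control array 1). They numbered 0 with the choroid plexus covariate or without IκBα-deficient array 2 and control array 3, and 1 with the meninges or the 3′ to 5′ covariate. Called genes ranged from 0 to 5 with 1 array left out (5 without control array 1, 1 without IκBα-deficient array 3), and were 1 with median centring, dim genes left out, trend and robust settings, array weights or the mean of all probe sets. With the repeat number as a block (replicate block), 2 probe sets and 0 genes were called, none a member. The SE with that block was 0.14 for H2-Aa and 0.088 for Cd74, against 0.24 and 0.11 in the gene fit without it. Deviations of same-numbered arrays from their group means correlated at 0.061, 0.24 and 0.20 across genes. IκBα-deficient arrays 2 and 3 correlated best with the control array of their own number, and array 1 with control array 3, at 0.14.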
